A study of Mus musculus with 2 samples.

Results

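The genes described here are 45 mouse genes of antioxidant defence: superoxide dismutases, catalase, glutathione peroxidases, peroxiredoxins, glutathione transferases, glutaredoxins, the genes of glutathione synthesis, and the transcription factor NRF2 with its partners. They were taken by name, as every gene probe on the arrays whose deposited gene name is one of the 45, a rule that uses names and no measured value. They had 66 probes among 55681, and 42 of the 45 genes were measured, of 22160 genes measured in all. A probe counted as measured where its intensity was well above background on both arrays.

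The comparison was between samples labelled as beta cells, from CSE-KO mice and from CSE-WT mice, with 1 array for each genotype. CSE, cystathionine gamma-lyase, is the enzyme encoded by Cth that makes cysteine from cystathionine and also releases hydrogen sulfide. The CSE-KO sample came from CSE knockout animals and the CSE-WT sample from wild-type animals, which the submitters' design named as the control. Both were of strain C57BL/6J, aged 6 months and kept on a high-fat diet, and neither group had a normal diet. The sources used here do not give how the knockout was made, the number of animals behind each sample, or any sorting of the cells.

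The beta cell label was checked against marker genes. All 10 beta cell markers were measured on both arrays, and Ins1 had an intensity of 482700 in CSE-KO cells and 503410 in CSE-WT cells. The alpha cell hormone gene Gcg reached 360770 in CSE-KO cells and 381290 in CSE-WT cells, and the acinar amylase gene Amy2a5 reached 149020 and 191900 in the same order. Transcripts of other pancreatic cells were thus present at high intensity in both samples. Neither Cth probe passed the background flag on either array; they read 3.15 and 3.68 in CSE-KO cells, against 13.5 and 12.8 in CSE-WT cells. Since the sources used here do not state what was deleted from Cth, these readings check the genotype label in part at most.

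Cells remove reactive oxygen in steps. Superoxide dismutases turn superoxide into hydrogen peroxide. Catalase, the glutathione peroxidases and the peroxiredoxins then remove the peroxide. For this the glutathione peroxidases and the peroxiredoxins draw electrons from glutathione or thioredoxin. Glutathione is built from glutamate, cysteine and glycine, so its supply depends on cysteine, which comes from cystine uptake and from the transsulfuration step that CSE carries out. KEAP1 holds NRF2 down in resting cells, and electrophiles and hydrogen sulfide, which modify KEAP1, release it. Rodent beta cells are known for low catalase and low glutathione peroxidase relative to liver.

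The 42 measured genes differed little between the arrays. Every difference is the CSE-KO value less the CSE-WT value in scaled log2 intensity, where each array was first divided by its own 75th percentile over gene probes (540 intensity units for CSE-KO, 519 for CSE-WT). The median difference of the 42 genes was -0.030, beside -0.0060 over all measured genes, and the genes ranged from -0.57 to 0.34. Of them 17 (40.5%) were higher and 25 (59.5%) lower, against 48.7% higher and 51.3% lower among all measured genes. Under 7 other scalings of the arrays 36 genes kept their sign, and Prdx3, Prdx5, Gstm5, Gstp1, Glrx2 and Nfe2l2, all near 0, turned in at least 1. None reached a 2-fold difference in either direction, which 0.718% of all measured genes did upward and 0.884% downward. The largest fold was 1.49, for Gpx8.

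No condition was replicated, so a test could not be made, and precision is limited by having 1 array for each genotype. The only error available is the technical spread between spots that carry the same probe. It was taken from 379 probes printed 10 times on each array, as the SD of the spot-by-spot difference between the arrays at each level, and is called the spot SD below. For dim probes (scaled level -3) it was 0.19 log2 units, for probes at the median level 0.072, and for bright ones (scaled level 3) 0.039. It covers the spread from spot to spot within the arrays only. A difference in labelling, hybridisation or scanning that all spots of a probe share is not in it. It says nothing of animals or preparations. The samples are bulk RNA, so fewer cells of a type and less RNA per cell cannot be told apart.

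Past 3 spot SD, 9 of the 42 genes were higher and 9 lower, which is 21.4% each way, beside 11.6% higher and 13.4% lower among all measured genes. The antioxidant genes are bright, and 33 of them lay above the median level of measured genes, where the spot SD is small. Among those 33 genes 8 were higher and 8 lower past 3 spot SD (24.2% each way), beside 14.1% and 20.3% of all genes above the median level. The sizes were small: the median absolute difference was 0.126, beside 0.131 for all measured genes and 0.098 for those above the median level. Differences under 0.2 were found for 30 of the 42 genes (71.4%, against 66.9% of all measured genes). Under 0.3 lay 39 of them (92.9%, against 81.1%). The shares of all measured genes include dim genes with a larger spot SD, so they are not matched for level. Against genes above the median level, the 42 genes had the larger median size (0.126 against 0.098).

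**Figure D1:**
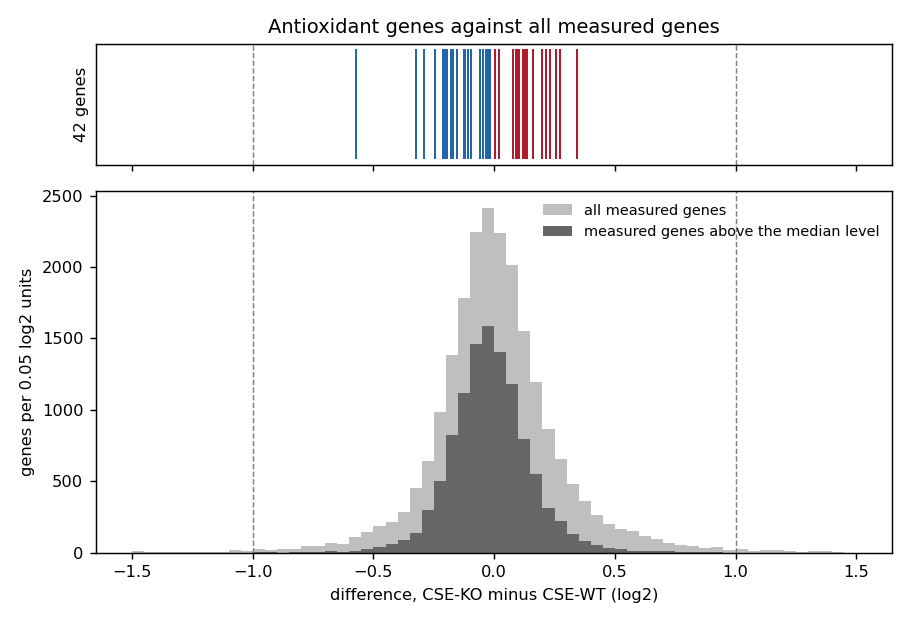
The upper strip marks the difference of each of the 42 measured antioxidant genes (CSE-KO minus CSE-WT, scaled log2 intensity; red higher, blue lower), and the lower panel counts all 22160 measured genes and those above the median level in steps of the same axis. The 42 genes lie between -0.57 and 0.34, inside the dashed lines at 2-fold.

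In CSE-KO cells intensities ran from 29.5 for the transferase gene Gsta3 to 50672 for Sod1, leaving aside Glrx2, whose probe is described below, and in CSE-WT cells from 30.8 to 52492 for the same genes. Levels of different probes cannot be set against each other as amounts of RNA, because probes bind with unequal strength.

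**Figure D2:**
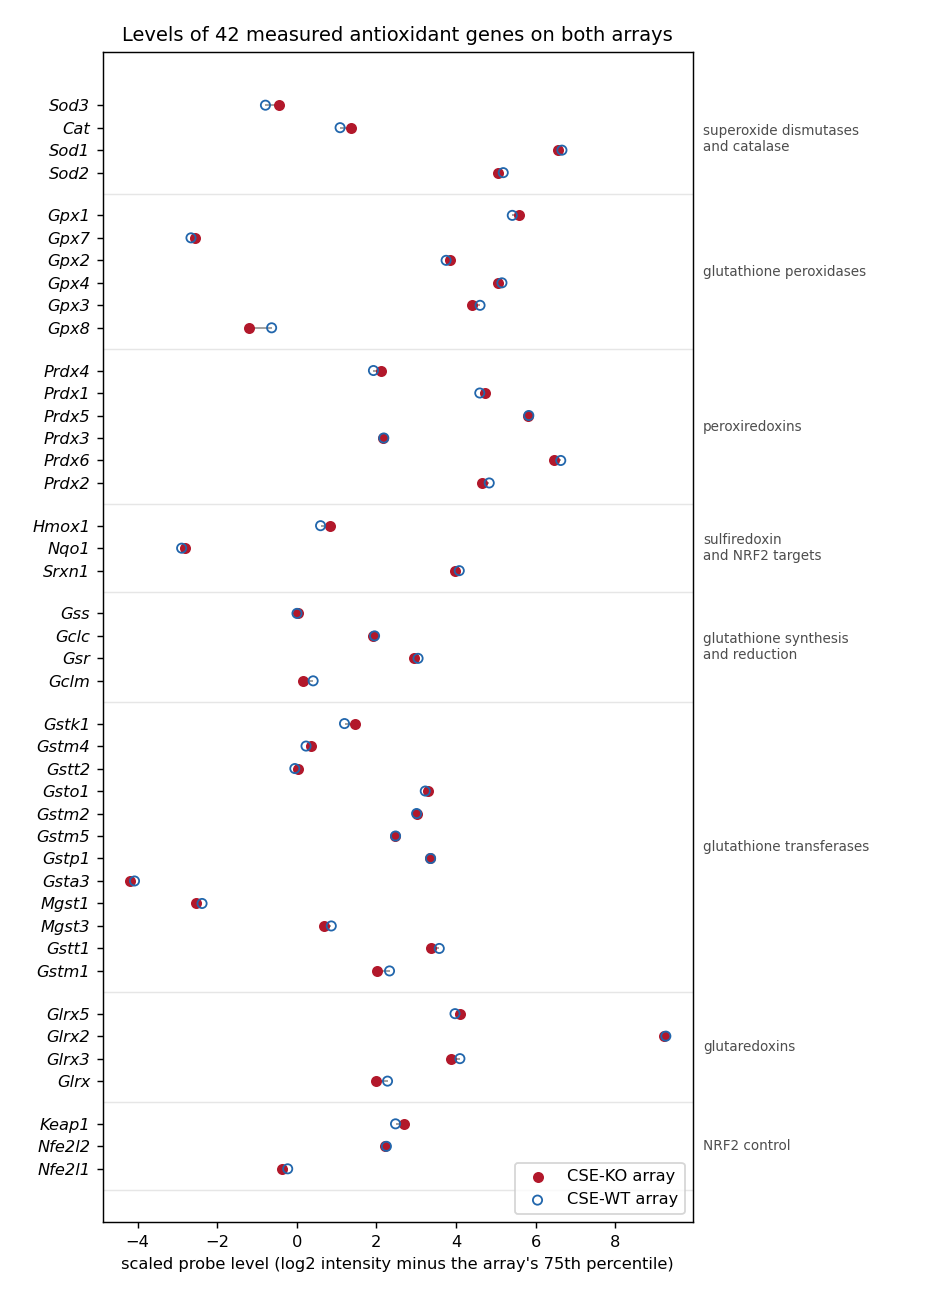
Each row is 1 measured gene, grouped by role, with its scaled level (log2 intensity minus the array's 75th percentile) on the CSE-KO array (filled red) and on the CSE-WT array (open blue). The symbols of a gene touch or overlap for most rows, and the widest gap is that of Gpx8.

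Among the superoxide dismutases and catalase, 2 genes were higher and 2 lower, and both higher ones were past 3 spot SD. Sod3, the secreted dismutase that binds to the cell surface and matrix, had 397 intensity units in CSE-KO cells and 301 in CSE-WT cells. Its difference of 0.34 was the highest of the 42 genes and came to 3.99 times its spot SD. Cat, the peroxisomal enzyme that splits hydrogen peroxide, read 1386 in CSE-KO cells and 1103 in CSE-WT cells, a difference of 0.27 or 5.01 spot SD. The cytosolic dismutase gene Sod1 and the mitochondrial Sod2 went the other way by less. Sod1 read 50672 in CSE-KO cells and 52492 in CSE-WT cells (-0.11, 2.58 spot SD in size), and Sod2 read 18033 and 18895 in the same order (-0.12, 2.98 spot SD). A second, dim probe for Cat passed the background flag in CSE-KO cells alone, at 21.9 units, against 8.26 in CSE-WT cells.

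Sod3 is known from vessel walls and connective tissue, and markers of stellate cells and fibroblasts were also higher in CSE-KO cells. All 6 measured genes of that list were higher past 3 spot SD, with a median difference of 0.64, from 0.08 for Acta2 to 1.04 for Col3a1. Their summed intensity, with the CSE-KO array brought to the scale of the CSE-WT array, was 2880 in CSE-KO cells and 2181 in CSE-WT cells. The remaining gene of the list, Lum, did not pass the background flag on both. The part of these cells in the Sod3 difference was not tested.

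The glutathione peroxidases split evenly, with 3 genes higher and 3 lower. Gpx1, the abundant cytosolic selenoenzyme that reduces hydrogen peroxide with glutathione, read 25727 in CSE-KO cells and 22117 in CSE-WT cells, a difference of 0.16 or 3.94 spot SD. Gpx3, the secreted peroxidase of plasma, read 11386 in CSE-KO cells and 12615 in CSE-WT cells, a difference of -0.20 or 5.02 spot SD in size. The intestinal-type Gpx2 had 7755 units in CSE-KO cells and 6989 in CSE-WT cells, a difference of 0.09. Gpx4, which reduces lipid peroxides in membranes and guards against ferroptosis, read 17789 and 18469 in the same order, a difference of -0.11. Both stayed within 3 spot SD. Gpx7, a peroxidase of the endoplasmic reticulum that helps fold proteins, was dim, with 91.7 units in CSE-KO cells and 82.3 in CSE-WT cells, and its difference of 0.10 was 0.65 spot SD.

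Gpx8, the other peroxidase of the endoplasmic reticulum, had the largest difference of all 42 genes. Its 1 probe (mm9, chromosome 13, 113833213 to 113833272, minus strand) read 234 in CSE-KO cells and 335 in CSE-WT cells, a difference of -0.57 or 6.12 spot SD in size. This spot is the only one among the 42 chosen probes that sits in a local patch of the slide. Of the 8 spots next to it, 3 were dark in CSE-KO cells, at 3.07, 3.06 and 3.07 units, and bright in CSE-WT cells, at 130, 82.6 and 204 units. After scaling, these neighbours were brighter in CSE-WT cells by 127, 79.7 and 202 units, and the Gpx8 spot was brighter there by 110. These 3 were picked for being dark on the CSE-KO array and bright on the CSE-WT array. The rest of the adjacent spots were brighter in CSE-WT cells by 7.59, 11.3, 8.80, 90.5 and 6974 units. The last of them read 31872 in CSE-WT cells. How much of the Gpx8 difference comes from the patch was not tested. Such patches touched 1255 probes, 1132 of them bright on the CSE-WT array. They held 95 of the 196 genes that were at least 2-fold lower in CSE-KO cells. Of the 159 genes at least 2-fold higher they held 6, and of all 22160 measured genes 558.

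**Figure D3:**
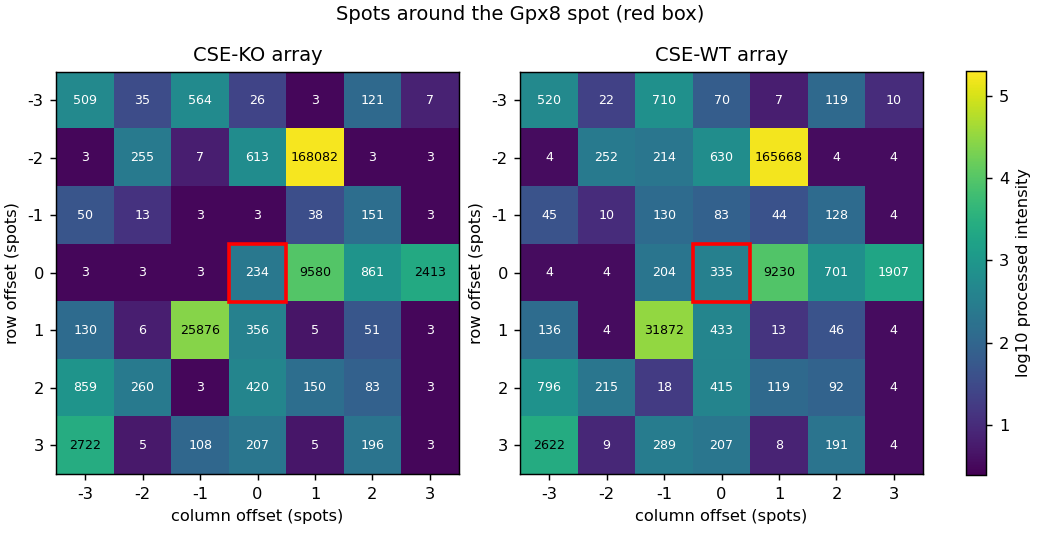
Processed intensity of the spot of Gpx8 (red box) and of the spots up to 3 rows and 3 columns away, on the CSE-KO array at the left and the CSE-WT array at the right (colour: log10 intensity, numbers: intensity units). The 3 dark spots above and to the left of Gpx8 on the CSE-KO array read 130, 82.6 and 204 in CSE-WT cells.

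Most peroxiredoxins reduce peroxides with thioredoxin, and they are spread over several compartments. Of the 6, 2 were higher and 4 lower. Prdx4, the secretory-pathway member that couples peroxide removal to disulfide formation, read 2354 in CSE-KO cells and 1972 in CSE-WT cells, a difference of 0.20 or 4.12 spot SD. Its second, dim probe passed the background flag in CSE-KO cells alone, at 23.1 units, against 17.8 in CSE-WT cells. Prdx1, a cytosolic member and an NRF2 target, had 14328 units in CSE-KO cells and 12558 in CSE-WT cells. Its difference was 0.13 (3.31 spot SD), and its second probe gave 0.22. Prdx2, the other abundant cytosolic member, ran against Prdx1, with 13582 units in CSE-KO cells and 14802 in CSE-WT cells (-0.18, 4.40 spot SD in size). Prdx2 is also a major protein of red cells, and 4 of the 5 measured erythroid markers were lower past 3 spot SD in CSE-KO cells. The summed intensity of these 5 was 22833 in CSE-KO cells and 32021 in CSE-WT cells on the common scale. Their part in the Prdx2 difference was not tested.

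Prdx6, the 1-cysteine member with phospholipase activity, was among the 3 brightest of the genes and shows what a choice of probe does. The probe used read 47470 in CSE-KO cells and 51421 in CSE-WT cells, a difference of -0.17 or 4.14 spot SD in size. Nearer the 5′ end of the transcript, a probe at base 527 gave -0.012 and another at base 726 gave -0.036. A dim probe at base 1804 read 37.1 in CSE-KO cells and 24.7 in CSE-WT cells, a difference of 0.53 within 3 spot SD. Thus 3 probes of Prdx6 gave a lower value in CSE-KO cells, and 1 of them did so past 3 spot SD.

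The mitochondrial members lay near 0. Prdx3 is the only measured gene of the list printed 10 times, so its spread between spots can be seen directly. Its spots ran from 2326 to 2482 units in CSE-KO cells (8 spots used, CV 2.3%) and from 2278 to 2453 in CSE-WT cells (10 spots, CV 2.64%). These unscaled ranges overlapped. Scaled spot by spot, the differences ran from -0.065 to 0.012, with 2 of 8 above 0, and the probe's value was -0.025. Prdx5, found in mitochondria, peroxisomes and cytosol, read 30282 in CSE-KO cells and 29480 in CSE-WT cells before scaling, and -0.017 after it, with its second probe at 0.030. Prdx3 and Prdx5 turned to the higher side under some other scalings of the arrays, in 2 and 4 of 7.

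Hmox1, Srxn1 and Nqo1 are the textbook readouts of NRF2 activity, and here they did not share a direction. Hmox1, the heme oxygenase that frees iron, carbon monoxide and biliverdin, had 959 units in CSE-KO cells and 785 in CSE-WT cells. Its difference was 0.23 (3.71 spot SD), and its second probe gave 0.10, within 3 spot SD. Srxn1, the sulfiredoxin that repairs over-oxidised peroxiredoxins, read 8543 in CSE-KO cells and 8787 in CSE-WT cells (-0.10, 2.41 spot SD in size). Nqo1, the quinone reductase, was dim, with 77.6 units in CSE-KO cells and 69.9 in CSE-WT cells, and its 0.10 was 0.56 spot SD.

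Hmox1 is strongly expressed by tissue macrophages as well, which recycle heme. Of 12 measured macrophage markers 9 were higher in CSE-KO cells, 7 of them past 3 spot SD, and 3 were lower, 2 of them past it. Their median difference was 0.33, and the summed intensity on the common scale was 47740 in CSE-KO cells and 37840 in CSE-WT cells. The complement genes C1qa, C1qb and C1qc were higher by 0.45, 0.45 and 0.54, while the lysozyme genes Lyz1 and Lyz2 had differences of -0.68 and -0.41. The part of macrophages in the Hmox1 difference was not tested.

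**Figure D4:**
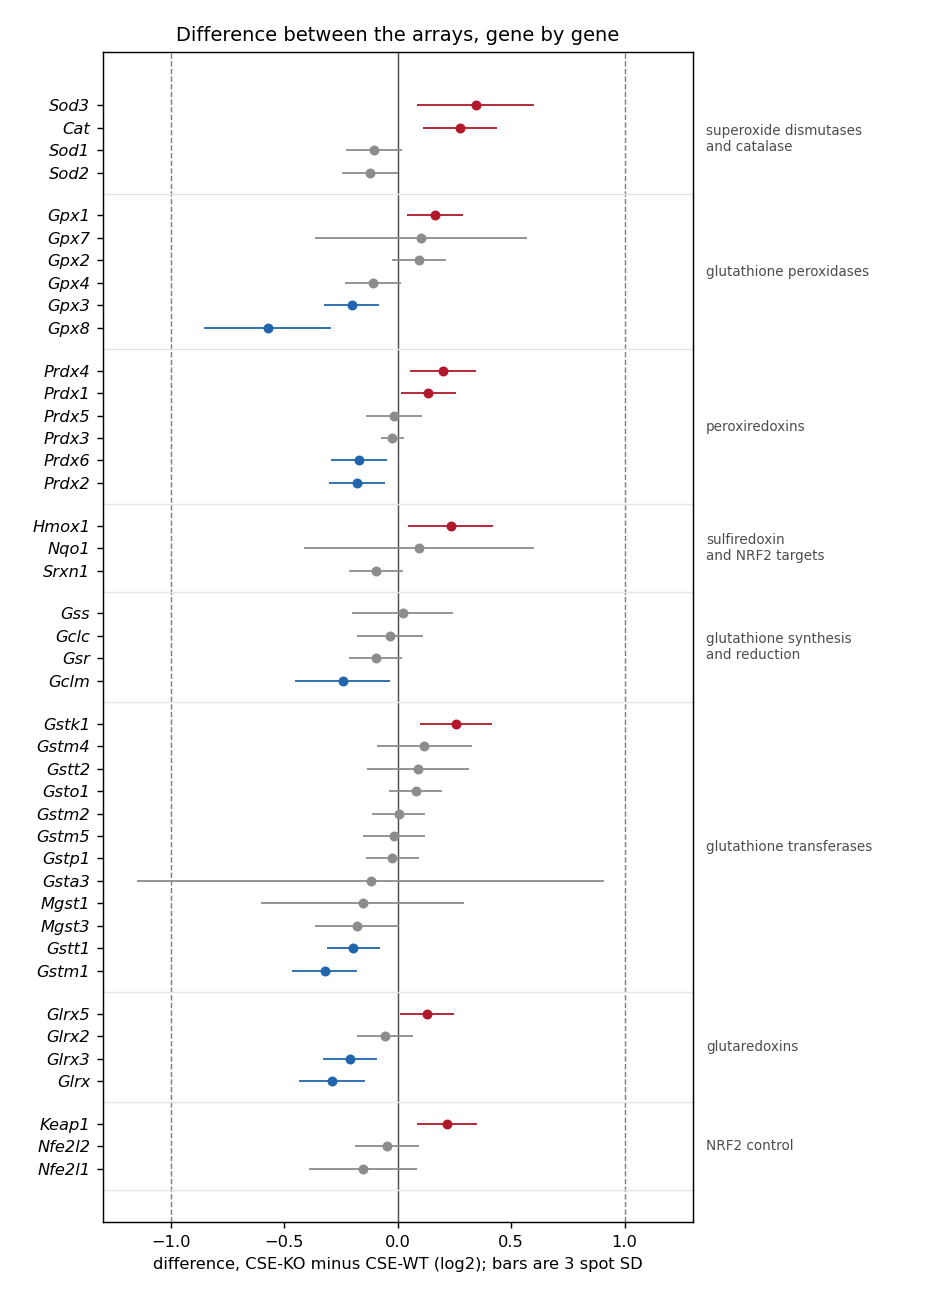
Difference between the arrays for each measured gene (CSE-KO minus CSE-WT, scaled log2 intensity), grouped by role, with bars of 3 spot SD either side. Red points are higher and blue points lower past 3 spot SD, 9 of each, grey points stay within it, and the dashed lines mark 2-fold.

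Glutathione synthesis starts with glutamate-cysteine ligase, made of a catalytic subunit (Gclc) and a modifier (Gclm) that raises its activity. The pair differed in size. Gclm read 606 in CSE-KO cells and 690 in CSE-WT cells, a difference of -0.24 or 3.49 spot SD in size, and was the only gene of this group past 3 spot SD. Gclc read 2040 in CSE-KO cells and 2011 in CSE-WT cells, which is -0.035 after scaling and within 1 spot SD. Gss, which adds glycine in the last step, had 550 and 521 units in the same order (0.022). Gsr, which reduces glutathione disulfide with NADPH, had 4166 and 4289 units (-0.10), and its second probe gave -0.059.

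Slc7a11, the cystine carrier that feeds cysteine to this pathway and a known NRF2 and ATF4 target, was not above background on either array. Its probe read 4.78 in CSE-KO cells and 3.87 in CSE-WT cells. The 308 negative control spots had a median of 3.11 units on the CSE-KO array and 3.86 on the CSE-WT array, with 95th percentiles of 3.43 and 4.32. The CSE-KO reading lay above that percentile and the CSE-WT reading below it, but both carry the flag for no signal above background, so no fold is given. Slc3a2, the heavy chain that cystine and other amino acid carriers share, was measured at 22221 in CSE-KO cells and 19358 in CSE-WT cells (0.14).

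The glutathione transferases join glutathione to electrophiles, and 12 of 14 were measured, 5 higher and 7 lower. Gstk1, the mitochondrial and peroxisomal kappa form, read 1478 in CSE-KO cells and 1191 in CSE-WT cells, a difference of 0.26 or 4.82 spot SD. Gstt1, a theta form, read 5628 and 6203 in the same order (-0.20, 5.0 spot SD in size), but a second Gstt1 probe, at 531 and 467 units, gave 0.13. With Gstm1 below, these were the transferases past 3 spot SD. The omega form Gsto1 had 5337 units in CSE-KO cells and 4862 in CSE-WT cells (0.08), Gstt2 had 555 and 502 (0.09), and the mu form Gstm4 had 688 and 610 (0.12, with a second probe at 0.11).

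Gstm1, a major cytosolic mu form, read 2169 in CSE-KO cells and 2609 in CSE-WT cells, a difference of -0.32 or 6.74 spot SD in size. That value comes from a probe which the array files place on chromosome 5, whereas the RefSeq gene table (GRCm38.p6) has Gstm1 on chromosome 3. It is the only 1 of the 66 probes placed away from its gene's chromosome. The probe on chromosome 3 read 1379 in CSE-KO cells and 1421 in CSE-WT cells, a difference of -0.10. Both are lower in CSE-KO cells, by amounts that differ by 0.22. The first 30 of 60 bases of each are shown because the Gstm1 value turns on which is used.
Gstm1 probe on mm9 chr5:117082490-117082549, minus strand: tgttcctggtggaggagcctccccaggcct
Gstm1 probe on mm9 chr3:107815595-107815654, minus strand: atcgcaacacctatattttcaaagatggcc

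The remaining transferases stayed within 3 spot SD on the probe used. Gstm2, a mu form, read 4356 in CSE-KO cells and 4181 in CSE-WT cells (0.0037 after scaling). Its other probes read 3554 and 3554 (-0.056), and 356 and 328 (0.061). Gstm5 read 2976 in CSE-KO cells and 2898 in CSE-WT cells (-0.017 after scaling), and Gstp1, the pi form, read 5449 and 5334 (-0.025 after scaling, with a second probe at 0.054). The microsomal Mgst3 read 868 in CSE-KO cells and 946 in CSE-WT cells (-0.18, 2.92 spot SD in size), and its second probe read 701 and 806 (-0.26, 3.87 spot SD in size, past the limit). Mgst1, the abundant microsomal form of liver, was dim at 93.1 and 99.8 units, with probes at -0.16 and -0.18. Gsta3 was dimmer still, at 29.5 and 30.8 units, and its probes gave -0.12 and 0.22, neither past 1 spot SD.

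Of the unmeasured transferases, Gsta4, which clears the lipid peroxidation product 4-hydroxynonenal, was printed 10 times. In CSE-KO cells its spots ran from 3.45 to 22.0 units with a median of 9.14, and 1 of 10 was above background. In CSE-WT cells they ran from 3.95 to 17.0 with a median of 6.83, and none of 10 was. Mgst2, a microsomal form that can also make leukotriene C4, read 3.25 in CSE-KO cells and 4.1 in CSE-WT cells, within the range of the negative controls.

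The glutaredoxins reduce disulfides that carry glutathione, or hold iron-sulfur clusters. Of the 4, 1 was higher and 3 were lower. Glrx, the cytosolic dithiol form, read 2142 in CSE-KO cells and 2520 in CSE-WT cells, a difference of -0.29 or 6.05 spot SD in size. Glrx5, the mitochondrial form needed for iron-sulfur cluster assembly, read 9272 and 8161 in the same order, a difference of 0.13 or 3.22 spot SD.

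Glrx3, the cytosolic form that carries iron-sulfur clusters, read 7976 in CSE-KO cells and 8884 in CSE-WT cells on the probe used, a difference of -0.21 or 5.3 spot SD in size. A second Glrx3 probe read 6228 and 5861, a difference of 0.032. The 2 probes overlap by 52 bases on chromosome 7 (mm9, plus strand) and differ within them by 1 base, C14T, counted from the first shared base with the base of the second probe given first. The array files annotate them to different transcript records of the gene. Their differences lay 0.24 apart. The first 30 shared bases are shown with that base in capitals.
Glrx3 probe used, mm9 chr7:144659806-144659865: atgctacgttctcTacgaagcagagaaggc
Glrx3 second probe, mm9 chr7:144659814-144659873: atgctacgttctcCacgaagcagagaaggc

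Glrx2, the mitochondrial and nuclear form, was the brightest gene of the list by number, at 320100 units in CSE-KO cells and 320433 in CSE-WT cells, a difference of -0.057. The probe behind that value ranked 11 of 55681 on the CSE-KO array and 13 on the CSE-WT array. It shares a run of 20 bases with 10 probes of other genes, among them Med16, Elk1 and Cxcl11. Those 10 were bright as well, with a median of 133137 units in CSE-KO cells and 107848 in CSE-WT cells, beside 37.9 and 37.4 for all gene probes, and all 10 were higher in CSE-KO cells by 0.11 to 0.41. How much of this signal comes from Glrx2 was not tested. The other Glrx2 probes read 3031 in CSE-KO cells and 3336 in CSE-WT cells (-0.19, 4.42 spot SD in size) and 258 against 217 (0.19, within 3 spot SD). The 30-base stretches below show the difference, with capitals for 20 bases that 5 probes of other genes also hold.
Glrx2 probe used, at base 3502 of its transcript, mm9 chr1:145596708-145596767, bases 29 to 58 of 60: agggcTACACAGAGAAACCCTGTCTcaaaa
Glrx2 probe at base 639, mm9 chr1:145593845-145593904, bases 1 to 30: tgtggattgccttcataaagatgattcaga
Glrx2 probe at base 3361, mm9 chr1:145596567-145596626, bases 1 to 30: agaaggtaacagggtatgttaattttcaat

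With the probe at base 639 in place of the bright one, Glrx2 would pass 3 spot SD on the lower side, and the list would have 19 such genes in place of 18. On the bright probe its sign turned under 4 of 7 other scalings and was exactly 0 under 1 more. This alternative was added after the data were seen.

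Several measured probes were available for 15 of the genes, and they show how far a gene's value differs with the probe. The probes agreed in sign for 7 genes: Gsr, Gstm1, Gstm4, Hmox1, Mgst1, Mgst3 and Prdx1. They disagreed for 8: Glrx2, Glrx3, Gsta3, Gstm2, Gstp1, Gstt1, Prdx5 and Prdx6. The median range between probes of a gene was 0.117, about as large as the median absolute difference of the 42 genes. The median SD between probes was 0.059 for these genes, beside 0.117 over all 6129 genes with several measured probes. The 6129 include dim genes with a larger spot SD, so the sets are not matched for level. A further 28 genes of the 45 had 1 probe on the array, among them Gpx1, Gpx3, Keap1 and Sod3, and have no such check.

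**Figure D5:**
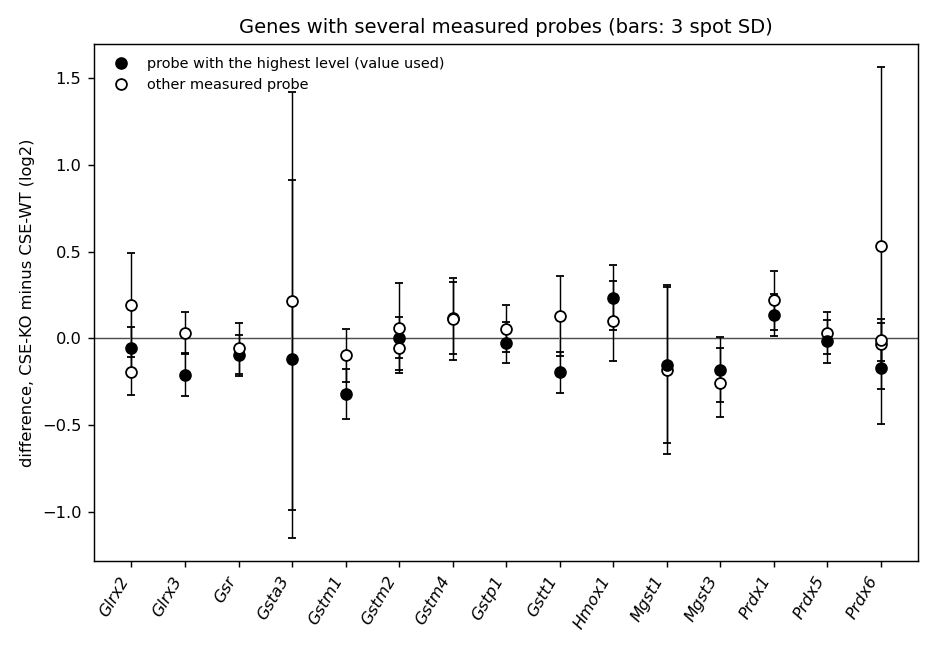
Difference (CSE-KO minus CSE-WT, scaled log2 intensity) of every measured probe of the 15 genes with several, the filled point being the probe used and the bars 3 spot SD. Points of 8 genes lie on both sides of 0, and the widest spread is that of Prdx6, from -0.17 to 0.53.

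NRF2 itself, encoded by Nfe2l2, read 2485 in CSE-KO cells and 2471 in CSE-WT cells, which is -0.047 after scaling and within 1 spot SD. Keap1, the adaptor that marks NRF2 for degradation and whose cysteines sense electrophiles, read 3497 in CSE-KO cells and 2896 in CSE-WT cells, a difference of 0.22 or 4.94 spot SD. Nfe2l1, a relative of NRF2 that governs proteasome genes, read 414 and 443 in the same order (-0.15, within 3 spot SD). NRF2 is governed mainly through the stability of its protein, which these arrays do not measure. Keap1's ubiquitin ligase partner Cul3 was also higher, at 1437 in CSE-KO cells and 1233 in CSE-WT cells (0.16, 3.12 spot SD), whereas the small Maf gene Maff, whose product pairs with NRF2 on DNA, was lower, at 254 and 317 units (-0.37, 4.0 spot SD in size). Among the 9 measured NRF2 partners and repressors these were the 2 past 3 spot SD. Mafk was at 0.08 and Rbx1 at -0.10.

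NRF2 binds DNA at the antioxidant response element, whose core is TGACNNNGC. The core was looked for on both strands in RefSeq promoters (GRCm38.p6), from 250 bases before to 50 after the gene start. Promoter sequences were at hand for 38 genes of the list. Those of Hmox1, Gclc, Gsr, Sod3, Gstt2, Gsta4 and Prdx6 were not, so these genes were not searched. A core outside the window would be missed. The core was found in 8 of 38 (21.1%), beside 14% of 27025 genes. All 8 were measured, 1 of them higher (Prdx1) and 7 lower (Gclm, Gsta3, Gstm5, Mgst1, Nfe2l2, Sod1 and Srxn1), with a median of -0.10. The 28 measured genes without the core in the searched window had 13 higher and 15 lower, with a median of -0.021. Of all measured genes 51.3% were lower, and the share lower among all genes with the core was not taken. Of the 7 lower genes, Gstm5 and Nfe2l2 turned under some other scalings of the arrays, and the probes of Gsta3 disagreed in sign. A match is a string of letters and not a bound site, and of the 8 genes Prdx1 and Gclm were past 3 spot SD. The windows of the 4 genes with the largest absolute differences among the 8 are shown with the core in capitals; in Prdx1, Gclm and Mgst1 it is on the other strand and reads as its reverse complement.
Prdx1, 124 bases before the gene start, chr4:116685456-116685484, plus strand: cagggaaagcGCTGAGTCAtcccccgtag
Gclm, 125 bases before the gene start, chr3:122245413-122245441, plus strand: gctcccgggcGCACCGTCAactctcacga
Gsta3, 112 bases before the gene start, chr1:21240454-21240482, plus strand: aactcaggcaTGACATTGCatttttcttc
Mgst1, 47 bases before the gene start, chr6:138140461-138140489, plus strand: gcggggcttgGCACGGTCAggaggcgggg

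Other NRF2 targets outside the list gave 14 higher and 10 lower of 24 measured, with a median of 0.028. Past 3 spot SD, 2 of the 24 were higher and 7 lower. Of all measured genes 11.6% were higher and 13.4% lower past it, and of those above the median level 14.1% and 20.3%. The counts past 3 spot SD in the other lists stand beside the same shares. Aox1, an aldehyde oxidase, read 681 in CSE-KO cells and 498 in CSE-WT cells (0.39). The carbonyl reductase gene Cbr3 read 2557 and 3122 in the same order (-0.34), and Ugdh, which makes the donor for glucuronidation, read 1320 and 1569 (-0.30). The exporter gene Abcc3 was at 0.30, within 3 spot SD. The ferritin genes Ftl1 and Fth1, which store iron, had differences of -0.15 each, and the malic enzyme gene Me1, a source of NADPH, had -0.17.

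The thioredoxin system, which recharges most peroxiredoxins, showed small differences at its centre. Thioredoxin reductase Txnrd1 read 6459 in CSE-KO cells and 6482 in CSE-WT cells (-0.061), and thioredoxin Txn1 read 10029 and 9242 (0.062), both within 3 spot SD. Its inhibitor Txnip, a glucose-induced gene, read 26280 in CSE-KO cells and 12997 in CSE-WT cells, a difference of 0.96, which is larger than that of any gene of the list.

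Genes of glutathione turnover gave 5 higher and 8 lower of 13, with 3 higher and 2 lower past 3 spot SD and a median of -0.060. Chac1, which breaks glutathione down in the cytosol and is induced in the ATF4 stress response, read 12239 in CSE-KO cells and 7616 in CSE-WT cells (0.63, 15.7 spot SD). Chac2, the constitutive form of the same enzyme, was at -0.22. Ggt5, which cleaves glutathione conjugates outside the cell, read 155 in CSE-KO cells and 230 in CSE-WT cells (-0.63), and Ggt7 was at 0.23.

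Glutathione transferases outside the list gave 7 higher and 1 lower of 8 measured and a median of 0.20, and 2 higher and 1 lower past 3 spot SD. With normexp background correction, followed by 75th percentile or quantile scaling, the median was 0.058 or 0.10, and 6 of 8 were higher. Gsto2, which also reduces dehydroascorbate, read 2301 in CSE-KO cells and 1390 in CSE-WT cells (0.67, 13.5 spot SD), beside 0.08 for Gsto1 in the list. Gstt3 read 120 and 162 units (-0.49). Gstcd and Gstm7 were dim, with differences of 0.57 and 0.51 within 3 spot SD.

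Some of the glutathione peroxidases, Gpx1 among them, need selenocysteine. Genes of selenoprotein synthesis and other selenoproteins gave 6 higher and 4 lower of 10 measured, with a median of 0.041. With normexp background correction the median turned to -0.022 (4 higher) or -0.015 (5 higher). Selm and Sepw1, small selenoproteins, were higher past 3 spot SD, by 0.15 and 0.14. Secisbp2, which recruits the machinery for selenocysteine, was at 0.16 and Sepp1, the plasma carrier of selenium, at -0.11, both within 3 spot SD.

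Sources of superoxide gave 7 higher and 5 lower of 12 measured, with a median of 0.20, which was 0.096 or 0.13 with normexp background correction. Cyba, the membrane subunit that several NADPH oxidases share, read 1418 in CSE-KO cells and 1011 in CSE-WT cells (0.43, 7.80 spot SD) and was the only one past 3 spot SD. Its phagocyte partner Cybb read 57.8 and 35.3 (0.66, 2.49 spot SD), Nox4 was at 0.37 and Xdh at -0.33. Cyba and Cybb are abundant in macrophages, whose markers were given above, and the part of these cells in the difference was not tested.

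Markers of islet cell types differed as well. All 7 alpha cell markers were lower past 3 spot SD, with a median of -0.62 and a summed intensity on the common scale of 531370 in CSE-KO cells and 601990 in CSE-WT cells. The 10 beta cell markers had a median of -0.09, with 4 higher and 6 lower. Past 3 spot SD, 3 beta cell markers were lower and 0 higher. Other marker lists had medians of -0.031 for acinar cells (4 of 8 higher) and 0.049 for endothelial cells (4 of 6 higher). The delta cell list had -0.05 (1 of 3 higher), with 2 of the 3 lower past 3 spot SD. The acinar genes spread widely, with 5 of 8 past 3 spot SD, among them Ctrb1 at 0.46, Amy2a5 at -0.42 and Ptf1a, which lies in a patch, at -2.24. Both measured ductal markers were higher, Krt19 by 0.23 and Spp1 by 0.53, and the 1 measured adipocyte marker, Fabp4, was at -0.45. The remaining 2 ductal and 3 adipocyte markers were not measured. The part of cell makeup in the differences of Gpx3, Gstm1, Glrx and the rest was not tested.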

How the data were processed

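Transcripts were measured on 2 one-colour Agilent oligonucleotide arrays. Per the file headers, the deposited intensities were made with Agilent Feature Extraction 10.7.1.1, with spatial detrending and no local background subtraction, and probe positions are on mm9. Version 9.5.1.1 stands in the submitters' processing notes. Outlier spots were left out (169 for CSE-KO, 139 for CSE-WT); none was saturated. The log2 processed intensity was averaged over spots of a probe and scaled to each array's 75th percentile. Probes above background by the deposited flag came to 59.6% for CSE-KO and 57% for CSE-WT. Each gene takes the value of whichever of its measured probes is brightest on average. The spot SD was taken by level from groups of probes with at least 8 usable spots on both arrays. It was then divided by the square root of the number of spots. Probes above the mean level of the brightest group, such as those of Gpx1, Prdx6 and Sod1, take that group's value of 0.041. A patch is a spot of which at least 2 of the 8 adjacent spots lie under 20 units on one array and at least 30 on the other.

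All 45 genes are named. Those past 3 spot SD or 2-fold, above background on 1 array, or with probes of opposite sign, and the 3 brightest, are given in full. Of every other list up to 4 genes with the largest absolute difference are named, and always Cth, Ins1, Ins2, Txnrd1, Txn1 and Txnip; Slc3a2, Me1, Ftl1, Fth1, the marker genes and the probes of other genes were picked after their values were seen. Ins2 read 330920 in CSE-KO cells and 332050 in CSE-WT cells (-0.060). The 45 genes enter by name alone, but they and the lists were chosen with earlier results of these data known. No fold between genotypes was tested. Alternatives were other scalings (median, quantile, cyclic loess), normexp background correction with an offset of 50, the authors' deposited table of probe intensities (both columns with a median of 37.65 and r of 0.9999 with their own array across probes), filters and probe rules. How that table was normalized is unstated in the sources used here. Its columns are on a linear scale, not centred, and correlate with the other array at 0.986 and 0.985. Calculations used Python 3.11.15, numpy 2.4.6, pandas 2.3.3, R 4.3.3 and limma 3.58.1. The limits of 2-fold and 3 spot SD were tried on gene differences simulated from the spot SD itself. That trial does not test the scaling, the normalization or the choice of probe.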

Additional observations from a re-analysis of the deposited data

How the results depend on the processing

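The median difference of the antioxidant genes lay between -0.035 and 0.043 under the 14 alternatives. It turned positive with the measured probe of lowest level in place of the highest (0.043, with 24 genes higher and 18 lower) and with arrays scaled to their median (0.0044, where the median of all measured genes was 0.028); for the first, the change is one of probe for 15 genes, and for the second the shift is that of all genes. The number of genes past 3 spot SD ran from 15 to 21, and none reached 2-fold under any alternative. Of the values of single genes under the alternatives, 516 moved by less than 1 spot SD and 62 by more. Among the 18 genes past 3 spot SD the sign changed with the choice of probe alone: with the probe of lowest level Prdx6 was at 0.53, Gstt1 at 0.13 and Glrx3 at 0.032, and with the mean over its probes Prdx6 was at 0.079. No paired analysis was possible because each genotype had 1 array. Both arrays came from 1 slide and 1 scan, so slide and scan could not be fitted as a block. Dim genes, such as Gsta3, Gpx7 and Nqo1, have a spot SD of 0.15 or more. Differences of the size that these genes showed were not detectable there.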
